A study of Rattus norvegicus with 60 samples.

Results

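Vsig4, Lyve1, Mrc1, Timd4, Cx3cr1, Mertk, Gpnmb, Trem2, Marco and Siglec1 are cell-surface markers used to tell resident from recruited macrophages, and their expression was followed in the knees and popliteal lymph nodes of 20 rats with haemophilia A. Each gene was read from the probe set whose annotation held exactly 1 gene symbol equal to it. Each of the 10 genes had 1 such probe set, so 10 of 18166 genes with a single symbol, and 10 of 36685 probe sets tested, are described. All rats carried haemophilia A, a lack of clotting factor VIII. In 11 rats a bleed was induced in the left knee, and in 9 rats a sham procedure was done. All were killed 24 h later. The bled groups hold tissue from the left knee and its node (11 each), the contralateral groups hold the right knee and node of the same 11 rats, and the sham groups hold 7 right knees and 9 right nodes. Bled and left therefore cannot be told apart. The knee samples were homogenates of tissue from inside the joint, labelled synovial tissue, and each sample gave 1 Affymetrix array. No strain, age or sex is given in the labels used here.

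Tissue macrophages come partly from long-lived resident cells, seeded early in life and renewed in place, and partly from blood monocytes that enter after injury and change their surface receptors as they settle. Work in mice has described a barrier-like layer of Cx3cr1-expressing macrophages on the synovial surface, above interstitial macrophages, while macrophages of the lymph node sinuses are known by the lectin Siglec1 and the scavenger receptor Marco. Several of the 10 genes take part in the clearance of dying cells, debris and complement-coated particles. A homogenate cannot tell fewer cells of a type from less RNA per cell, and this holds for each difference below.

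Values are log2 expression values, so a difference of 1 is a 2-fold change, and levels of different genes were not set against each other. The tissue labels were read against marker lists in the sham groups. All 5 measured B cell genes and all 7 T cell genes were lower in knee than in node, and all 9 adipocyte genes and all 8 synovial fibroblast genes were higher. The skeletal muscle list, 7 measured genes, ranged over knees from a mean log2 value of 6.15 to 12.78. The 3 arrays that stood apart from their groups were the sham knee of rat C5 (r = 0.965 with the rest of its group), the sham node of C9 (0.965) and the sham node of C2 (0.984). The contralateral knee of K10 had a mean log2 value of 8.56 over the 10 neutrophil markers, against a group median of 6.04.

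**Figure D1:**
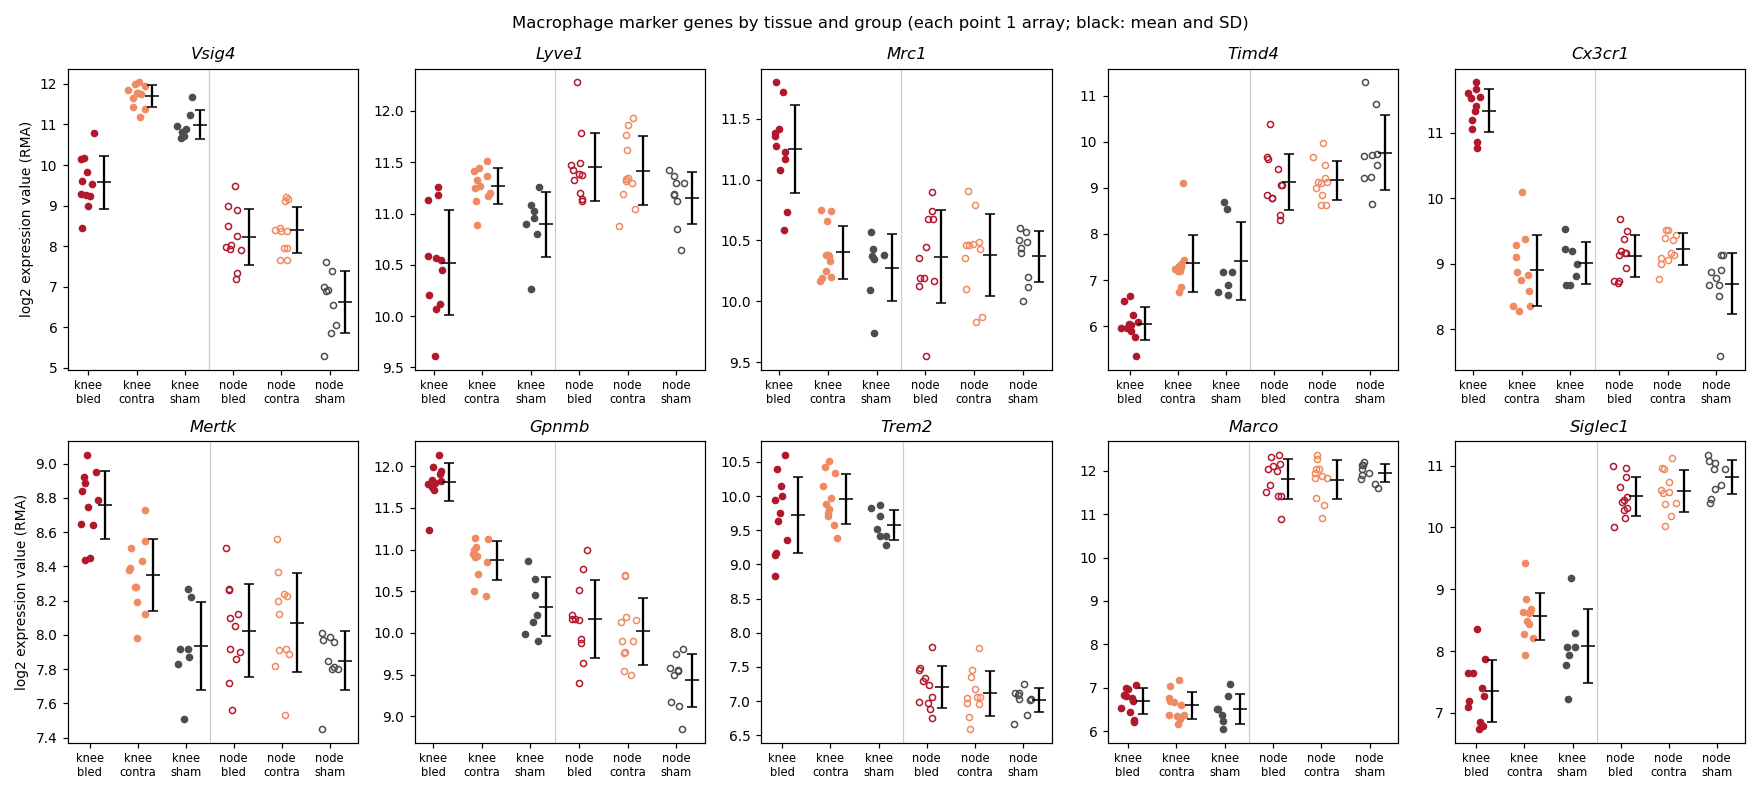
Log2 expression value (vertical axis) of each of the 10 genes in the 3 knee groups (filled) and 3 node groups (open). Each point is 1 array and the black bars give mean and SD. Vsig4, Timd4, Cx3cr1 and Gpnmb have bled knees clear of the contralateral knees, while Marco and Siglec1 lie far higher in nodes than in knees.

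In the bled knee, 4 of the 10 genes were higher than in the contralateral knee, 4 were lower and 2 did not pass the test, at an adjusted p under 0.05 in limma over all probe sets. Cx3cr1, Gpnmb, Mrc1 and Mertk were higher, and Vsig4, Timd4, Siglec1 and Lyve1 were lower. Over all 36685 probe sets 34.7% were called in this comparison, 19.5% higher and 15.2% lower. The median difference of the 10 genes was -0.07 and that of all probe sets 0.00364, so the genes moved apart with no common shift. The 2 groups did not overlap for 4 of the 10 genes, against 13.5% of all probe sets.

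Cx3cr1, the receptor of the chemokine fractalkine and a marker of monocytes and of some macrophages, had the largest difference of the 10 in this comparison. Its values ran from 10.76 to 11.77 (median 11.41) in bled knees, from 8.28 to 10.1 (median 8.83) in contralateral knees and from 8.67 to 9.53 (median 8.99) in sham knees. Every bled knee was above every other knee. The bled side was higher by 2.44 ± 0.17 (SE) log2 units than the contralateral side, 5.42-fold (95% interval 4.24 to 6.93, adjusted p = 6.53e-13), and in 11 of 11 rats. Within rats the difference ran from 1.5 to 3.42. The highest contralateral value was that of K10, and without that knee the difference was 2.56. Cx3cr1 is also made by natural killer cells. Of 9 natural killer and cytotoxic markers, 2 were higher (Klrk1 by 1.05 and Ncr1 by 0.30) and Gzma was lower at -0.48. The mean of that list lay between 5.25 and 5.63 in bled knees and between 5.13 and 5.56 in contralateral knees, so the groups overlapped. All these means lay under the lowest array median, 5.64. The share of these cells in the Cx3cr1 difference was not tested.

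Gpnmb encodes a transmembrane glycoprotein of lysosome-rich, lipid-handling macrophages, also made by osteoclasts and melanocytes. Bled knees held 11.23 to 12.13 (median 11.82), contralateral knees 10.44 to 11.14 (median 10.92) and sham knees 9.91 to 10.86 (median 10.22). The lowest bled knee was above the highest contralateral knee. The difference was 0.94 ± 0.11, or 1.92-fold (adjusted p = 1.98e-08), with the bled side higher in 11 of 11 rats and by 0.61 to 1.21 within rats. Of 4 measured osteoclast markers Mmp9, which neutrophils also make, was higher by 1.42 ± 0.32 (adjusted p = 0.000617), Ctsk was lower at -1.11, and Atp6v0d2 (-0.39) and Calcr (-0.02) did not pass. The mean of that list ran from 5.75 to 7.05 in bled and from 5.96 to 6.88 in contralateral knees. Of 5 melanocyte markers 0 were higher and Mlana was lower at -1.94. Median values in bled and contralateral knees were 3.69 and 5.31 for Mlana, 5.81 and 5.92 for Pmel, 4.86 and 5.01 for Dct, 4.01 and 3.95 for Tyrp1 and 2.93 and 2.94 for Tyr, beside array medians of 5.64 to 5.94. The mean of the melanocyte list ran from 4.02 to 4.46 in bled and from 4.43 to 4.88 in contralateral knees. The part of either cell type in the Gpnmb difference was not tested.

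Mrc1 encodes the mannose receptor CD206, an endocytic lectin of resident and of alternatively activated macrophages. Its values were 10.59 to 11.8 (median 11.28) in bled knees, 10.17 to 10.75 (median 10.37) in contralateral knees and 9.74 to 10.57 (median 10.37) in sham knees. The bled and contralateral groups overlapped through the lowest bled knees, and 10 of 11 rats were higher on the bled side. The difference was 0.85 ± 0.12, or 1.80-fold (adjusted p = 8.52e-07). Mertk, a receptor tyrosine kinase for the uptake of apoptotic cells, reached 8.44 to 9.05 (median 8.79) in bled knees, 7.98 to 8.73 (median 8.38) in contralateral knees and 7.51 to 8.27 (median 7.92) in sham knees. It rose within each of the 11 rats, by 0.16 to 0.86, although bled and contralateral groups overlapped. Its difference of 0.41 ± 0.09 was the smallest of the 8 that passed (adjusted p = 0.000516).

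Vsig4, a complement receptor of resident macrophages that binds fragments of C3, fell furthest. Bled knees lay between 8.44 and 10.8 (median 9.53), contralateral knees between 11.19 and 12.04 (median 11.77) and sham knees between 10.66 and 11.68 (median 10.88). No bled knee reached the contralateral range, and 1 bled knee, that of K11, entered the sham range. The difference from the contralateral side was -2.13 ± 0.19, a level 4.39-fold lower (95% interval 3.35 to 5.75, adjusted p = 8.05e-11), in 11 of 11 rats and by -3.41 to -0.98 within rats.

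Timd4, a phosphatidylserine receptor by which resident macrophages bind dying cells, was the only other gene of the 10 that was lower with no overlap. It lay between 5.35 and 6.65 (median 6.03) in bled knees, between 6.74 and 9.11 (median 7.29) in contralateral knees and between 6.68 and 8.7 (median 7.17) in sham knees. All bled knees were below all other knees, and 1 of 11 was below its array's median. The difference was -1.31 ± 0.24, 2.49-fold lower (adjusted p = 4.16e-05), in 11 of 11 rats. The contralateral knee of K8 stood far above the other 10, which reached at most 7.43.

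Siglec1, the sialic-acid-binding lectin sialoadhesin, is raised by interferon as well as marking macrophage subsets. Bled knees held 6.74 to 8.35 (median 7.27), contralateral knees 7.93 to 9.43 (median 8.61) and sham knees 7.22 to 9.19 (median 8.06). The groups overlapped, but the bled side was lower in 11 of 11 rats. The difference was -1.21 ± 0.20, 2.31-fold lower (adjusted p = 6.12e-06), and -1.12 without the contralateral knee of K10, which had the highest value. Among 13 measured interferon-stimulated genes 10 were lower and 1, Ifit1, was higher, with Gbp5 at -1.82, Ifit2 at -1.65 and Irf7 at -1.42. The mean of that list ran from 6.48 to 7.92 in bled knees and from 7.24 to 8.63 in contralateral knees, and its part in the Siglec1 difference was not tested.

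Lyve1, a hyaluronan receptor of perivascular resident macrophages and of lymphatic endothelium, was 9.61 to 11.26 (median 10.55) in bled knees, 10.89 to 11.51 (median 11.27) in contralateral knees and 10.26 to 11.26 (median 10.96) in sham knees. Bled and contralateral values overlapped, and all 11 rats were lower on the bled side, by -1.8 to -0.07. The difference was -0.75 ± 0.15, 1.68-fold lower (adjusted p = 0.000148). Of 8 lymphatic endothelial markers 4 were lower as well, Mmrn1 by -1.54, Prox1 by -1.01, Reln by -0.63 and Nrp2 by -0.25, and Pdpn, which synovial fibroblasts also make, was higher by 1.09. The mean of that list ran from 8.48 to 9.09 in bled knees and from 8.51 to 9.46 in contralateral knees, and its part in the Lyve1 difference was not tested.

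Trem2 and Marco did not pass the test. Trem2, a lipid receptor that signals through the adaptor Tyrobp, had medians of 9.76 in bled, 9.89 in contralateral and 9.52 in sham knees. It was higher on the bled side in 5 rats and lower in 6, with a difference of -0.23 (95% interval -0.59 to 0.12, adjusted p = 0.355). Its bled knees were spread from 8.83 to 10.6, more widely than its contralateral knees, 9.39 to 10.52. Marco, a class A scavenger receptor, lay between 6.05 and 7.18 in all 29 knees and differed by 0.10 (95% interval -0.17 to 0.36, adjusted p = 0.656).

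**Figure D2:**
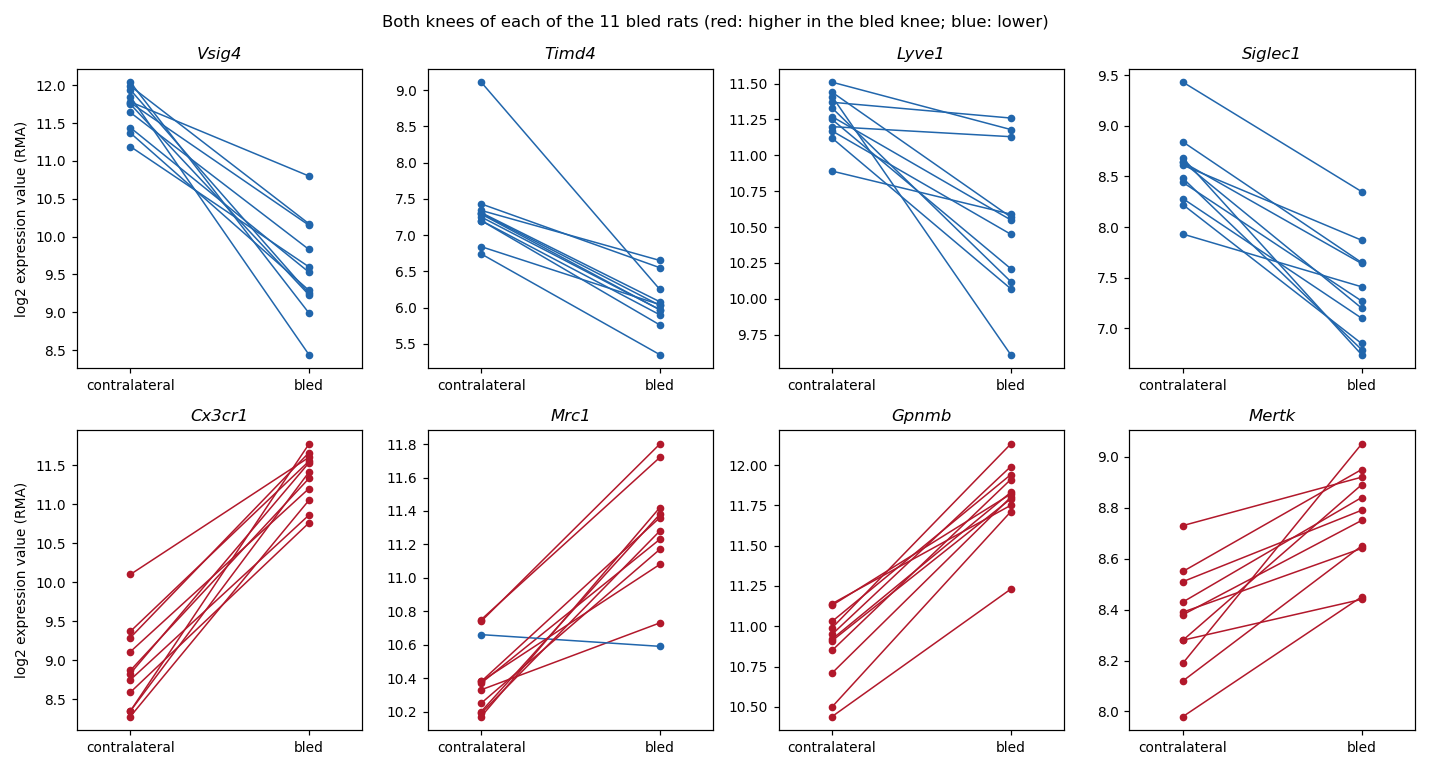
Log2 expression value (vertical axis) in both knees of each of the 11 bled rats for the 8 genes that passed the test between bled and contralateral knee. A line joins the 2 knees of 1 rat, blue where the bled knee is lower and red where it is higher. Of the lines, 1 runs against its gene's direction, for Mrc1.

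Promoters are shown for 2 genes that were lower and 2 that were higher in the bled knee and that carried a match to one of the motifs searched. They span 250 bases before to 50 after the gene start, from RefSeq on the rat build GRCr8, 5′ to 3′ on the gene's strand. RefSeq promoters were matched for 9 of the 10 genes, all but Siglec1. Capitals mark matches on either strand to GAGGAA (core of the PU.1 site), TGANTCA (AP-1) or TGCTGA (core of the MAF site, which reads TCAGCA on the other strand). The E-box CACGTG, bound by MITF and TFE factors, was searched too, as was the core of the interferon-stimulated response element, GAAA, any 2 bases and then GAAA again. No matches overlapped in these sequences.
Vsig4 chrX:65179659-65179958 (-): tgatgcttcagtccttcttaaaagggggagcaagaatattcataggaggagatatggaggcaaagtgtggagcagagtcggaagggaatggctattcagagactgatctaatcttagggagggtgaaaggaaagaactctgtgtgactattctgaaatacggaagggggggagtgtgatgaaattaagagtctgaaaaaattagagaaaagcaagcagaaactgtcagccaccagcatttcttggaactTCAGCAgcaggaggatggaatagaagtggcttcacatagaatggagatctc
Timd4 chr10:31686744-31687043 (+): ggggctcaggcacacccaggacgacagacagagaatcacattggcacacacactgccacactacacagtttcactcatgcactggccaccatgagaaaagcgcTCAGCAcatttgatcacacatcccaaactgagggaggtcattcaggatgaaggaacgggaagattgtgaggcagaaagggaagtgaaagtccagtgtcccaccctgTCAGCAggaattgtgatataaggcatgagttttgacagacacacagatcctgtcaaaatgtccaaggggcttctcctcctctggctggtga
Mrc1 chr17:82157475-82157774 (+): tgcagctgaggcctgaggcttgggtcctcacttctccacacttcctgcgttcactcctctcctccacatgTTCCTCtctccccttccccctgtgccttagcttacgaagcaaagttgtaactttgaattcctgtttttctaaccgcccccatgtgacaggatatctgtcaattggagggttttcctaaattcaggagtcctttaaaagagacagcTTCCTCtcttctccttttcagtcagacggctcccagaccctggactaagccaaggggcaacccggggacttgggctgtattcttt
Gpnmb chr4:79340878-79341177 (+): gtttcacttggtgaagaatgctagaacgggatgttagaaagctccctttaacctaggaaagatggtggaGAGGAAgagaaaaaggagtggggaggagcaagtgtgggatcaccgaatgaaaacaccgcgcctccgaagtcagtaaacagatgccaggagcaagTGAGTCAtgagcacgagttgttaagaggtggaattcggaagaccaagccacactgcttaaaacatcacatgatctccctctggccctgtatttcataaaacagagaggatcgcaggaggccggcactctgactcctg
TGCTGA was found in 2 of the 9 promoters, those of Vsig4 and Timd4, against 18.4% of all 33469 rat promoters. GAGGAA was in 4 of 9, Mrc1, Gpnmb, Trem2 and Marco, against 27.6%, and TGANTCA in 2 of 9, Gpnmb and Trem2, against 7.33%. The E-box was in 0 of 9, against 6.42%, and the interferon element core in 0 of 9, against 3.92%. The promoters of Lyve1, Cx3cr1 and Mertk held none of the 5 motifs. A match describes these letters only.

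Against sham knees, 7 of the 10 genes passed the test, 4 higher and 3 lower, where 38.7% of all probe sets were called, 19.9% higher and 18.8% lower. Cx3cr1 was higher by 2.32 ± 0.20 (5.01-fold, adjusted p = 3.87e-11), Gpnmb by 1.49 ± 0.12 (2.82-fold, adjusted p = 2.88e-11), Mrc1 by 0.98 ± 0.14 (adjusted p = 7.94e-07) and Mertk by 0.83 ± 0.10 (adjusted p = 1.13e-07). Each of these 4 had no overlap between bled and sham knees, and with Timd4 that made 5 of 10 genes, against 14.6% of all probe sets. Vsig4 was lower at -1.42 ± 0.22 (2.68-fold, adjusted p = 2.35e-06), Timd4 at -1.36 ± 0.27 (adjusted p = 0.000145) and Siglec1 at -0.73 ± 0.22 (adjusted p = 0.00939). Lyve1 differed by -0.38 ± 0.17 and did not pass (adjusted p = 0.0857), but passed after quantile normalization, at -0.52 (adjusted p = 0.0188). It also passed when the bled knee of K1, K10 or K11 or the sham knee of C1 was left out (adjusted p 0.0264 to 0.0405). This comparison shares its bled knees with the one above and is not independent of it.

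Contralateral and sham knees, both right knees, differed in Gpnmb and Mertk. These 2 of 10 genes were higher on the contralateral side, where 1.82% of all probe sets were called and 0.984% were higher. Gpnmb was higher by 0.55 ± 0.12 (1.47-fold, adjusted p = 0.0143) and Mertk by 0.41 ± 0.10 (1.33-fold, adjusted p = 0.0336), and both pairs of groups overlapped. Vsig4 was 0.71 ± 0.22 above sham without passing (adjusted p = 0.0843). When the bled knees were kept out of the model Vsig4 passed (adjusted p = 0.0143) and Mertk did not (adjusted p = 0.0819). Vsig4 also passed without the bled knee of K8 or K11 or the sham knee of C3 (0.0421 to 0.0489). Mertk lost its call in 9 of the 29 fits that left out 1 knee, contralateral K2, K5, K7, K8 or K11 and sham C1, C5, C6 or C9, with adjusted p from 0.0507 to 0.0913. Gpnmb kept its call in each of those fits, but with array weights neither Gpnmb (adjusted p = 0.0601) nor Mertk (0.0937) passed. The median difference was 0.38 over the 10 genes and -0.02 over all probe sets.

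The order of the 3 knee groups differed between genes. Gpnmb stepped down from 11.81 in bled to 10.87 in contralateral to 10.32 in sham knees, each step larger than the larger SD of its neighbours. Vsig4 had its highest mean in contralateral knees, 11.71, then 10.99 in sham and 9.57 in bled knees, also with each step beyond the spread. Mertk stepped down from 8.76 to 8.35 to 7.93, with both steps beyond the spread. For Cx3cr1, Mrc1 and Timd4 the contralateral and sham means differed by less than their SD.

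**Figure D3:**
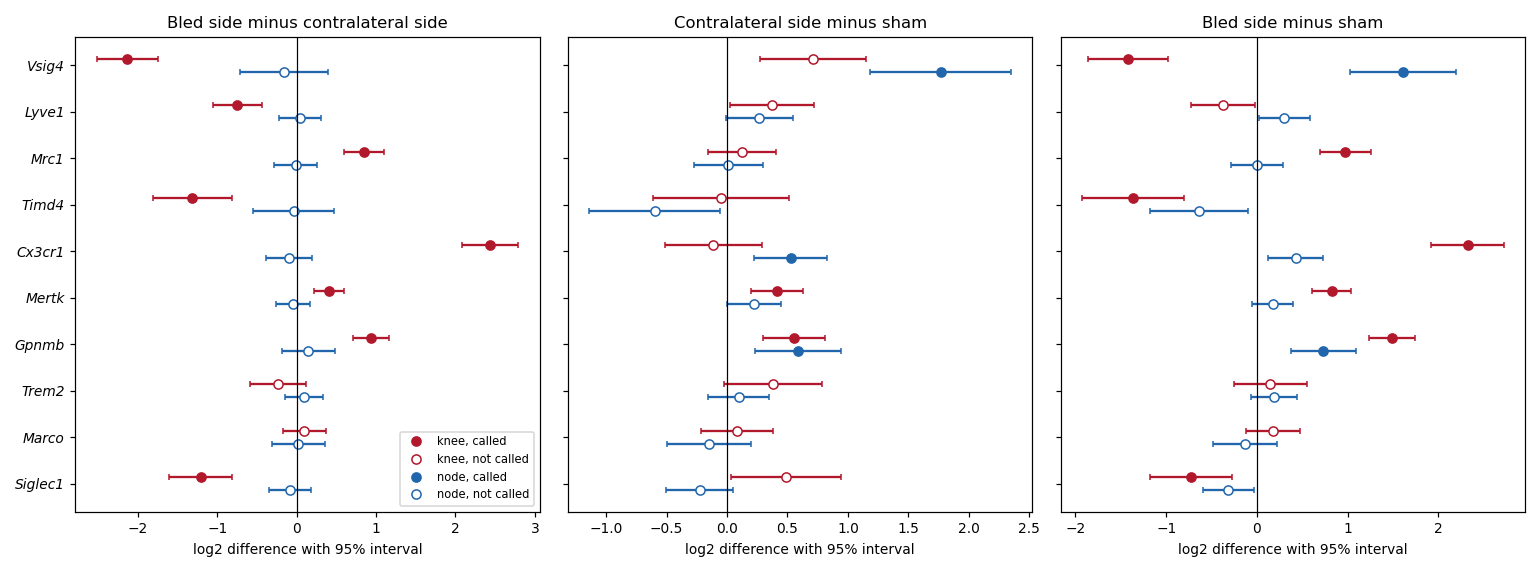
Differences of group means in log2 units with 95% intervals (horizontal axis) for the 10 genes in knee (red) and node (blue), filled where the adjusted p was under 0.05. Bled against contralateral nodes lie close to 0 for all 10 genes, whereas Vsig4 in nodes is 1.61 and 1.77 above sham.

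Between the popliteal nodes of both sides of the bled rats, no difference in the 10 genes passed the test. In limma 0 of 10 were called, 0 of 10 had an unadjusted p under 0.05, and 0% of all 36685 probe sets were called in this comparison. The widest difference was that of Vsig4, -0.16 (95% interval -0.71 to 0.39), and that of Cx3cr1, highest of the 10 in the knee, was -0.10 (95% interval -0.39 to 0.19). The intervals bound the differences only as far as 11 nodes a side allow.

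Nodes of both sides differed from sham nodes. Vsig4 and Gpnmb were higher in bled nodes, 2 of 10 genes, where 4.26% of all probe sets were called and 1.91% were higher. In contralateral nodes Vsig4, Gpnmb and Cx3cr1 were higher, 3 of 10, where 5.03% were called and 2.22% were higher. The sham nodes are shared by both comparisons. Vsig4 lay between 7.2 and 9.48 (median 8.04) in bled nodes, between 7.66 and 9.22 (median 8.38) in contralateral nodes and between 5.29 and 7.62 (median 6.9) in sham nodes. All contralateral nodes were above all sham nodes, as for 0.251% of all probe sets, while bled and sham nodes overlapped. The difference from sham was 1.61 ± 0.29 on the bled side (3.05-fold, adjusted p = 0.00237) and 1.77 ± 0.29 on the contralateral side (3.41-fold, adjusted p = 0.000804).

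Gpnmb was 9.4 to 10.99 (median 10.17) in bled, 9.5 to 10.7 (median 9.91) in contralateral and 8.85 to 9.81 (median 9.55) in sham nodes. It was higher than sham by 0.73 ± 0.17 in bled nodes (adjusted p = 0.0136) and by 0.59 ± 0.17 in contralateral nodes (adjusted p = 0.0439), with overlap in both. Cx3cr1 was 8.71 to 9.69 (median 9.16) in bled, 8.76 to 9.52 (median 9.17) in contralateral and 7.59 to 9.14 (median 8.78) in sham nodes. Its difference from sham was 0.53 ± 0.15 on the contralateral side (adjusted p = 0.0365, or 0.0618 with the bled nodes kept out of the model) and 0.43 ± 0.15 on the bled side (adjusted p = 0.0965). The lowest sham value of Cx3cr1 belonged to C9. That node was also the lowest sham node in Mertk, at 7.45, and in Gpnmb, Vsig4, Lyve1, Timd4 and Siglec1. Without the nodes of C2 and C9 the Cx3cr1 difference was 0.36 (adjusted p = 0.115), and the Gpnmb differences were 0.61 on the bled side (adjusted p = 0.0658) and 0.47 on the contralateral side (adjusted p = 0.165). Leaving out 1 node ended the contralateral Gpnmb call in 12 of 31 fits (contralateral K3, K4, K5, K7, K8, K9 and K11 and sham C2, C6, C7, C8 and C9, adjusted p up to 0.093). It ended the Cx3cr1 call in 9 (contralateral K4, K5, K7, K8 and K11 and sham C2, C6, C8 and C9, up to 0.0676).

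Markers of other cell types and interferon-stimulated genes moved with these node groups. Of 9 adipocyte genes 5 were higher in contralateral than in sham nodes, with a median difference of 0.84, and 3 were higher in bled nodes. Their mean log2 value ran from 7.05 to 9.15 in bled, from 8.31 to 9.10 in contralateral and from 6.95 to 8.90 in sham nodes. With that mean as a covariate Vsig4 was 1.35 above sham on the bled side (adjusted p = 0.0251) and 1.36 on the contralateral side (adjusted p = 0.0822). The Gpnmb differences were then 0.73 and 0.58 (adjusted p = 0.0581 and 0.286), and that of Cx3cr1 on the contralateral side was 0.54 (adjusted p = 0.244). Of 8 synovial fibroblast genes 4 were higher in contralateral nodes and 1 in bled nodes, with list means of 9.35 to 9.83 in contralateral, 9.28 to 9.84 in bled and 8.83 to 9.37 in sham nodes. Of 13 interferon-stimulated genes 3 were higher in contralateral nodes and 6 in bled nodes, with list means of 7.36 to 8.19, 7.37 to 8.26 and 6.81 to 7.88 in contralateral, bled and sham nodes. The part of these fibroblast and interferon genes in the node differences was not tested.

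Lyve1, Mrc1, Timd4, Mertk, Trem2, Marco and Siglec1 passed in no comparison of nodes. Timd4 had its highest node median in the sham group, 9.69, against 9.06 in bled and 9.12 in contralateral nodes, and differed from sham by -0.64 (adjusted p = 0.172) and -0.60 (adjusted p = 0.198). Siglec1, which marks the macrophages lining the lymph node sinuses, ranged over 10.01 to 11.17 in all 31 nodes. Marco, a marker of medullary sinus macrophages, ranged over 10.9 to 12.36. Mrc1 had group means of 10.37, 10.38 and 10.37 in bled, contralateral and sham nodes.

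The difference between the sides in knees was set against that in nodes in 1 model of all 60 arrays. The same 8 genes that passed between bled and contralateral knees differed between knee and node, where 27.8% of all probe sets were called. The knee difference exceeded that in nodes by 2.54 for Cx3cr1 (adjusted p = 3.87e-14), and it was lower by -1.97 for Vsig4 (adjusted p = 2.97e-06). For the difference between contralateral and sham, 0 of 10 genes passed between the tissues, against 2.03% of all probe sets, and 3 had an unadjusted p under 0.05. Without the sham knee of C3, Siglec1 passed at 0.90 (adjusted p = 0.0389).

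Knee and node of sham rats had different marker profiles. Vsig4, Trem2 and Gpnmb were higher in knee and Marco, Siglec1 and Timd4 higher in node, 6 of 10 genes, where 52.5% of all probe sets were called, 24.3% higher and 28.3% lower in knee. Vsig4 was 4.37 log2 units higher in knee (adjusted p = 1.57e-20), Trem2 2.56 (adjusted p = 2.15e-19) and Gpnmb 0.88 (adjusted p = 1.05e-05). The knee minus node difference was -5.43 for Marco, 43.2-fold (adjusted p = 1.11e-34), -2.74 for Siglec1 (adjusted p = 1.66e-18) and -2.35 for Timd4 (adjusted p = 7.78e-10). All Trem2 values were 8.83 or more in knees and 7.79 or less in nodes. Joint normalization of the tissues is not given in the sources used here, so these levels across tissues rest on the deposited scale. Cx3cr1 differed by 0.32 without passing, and passed after quantile normalization of all arrays together at 0.46 (adjusted p = 0.0301).

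Companion lists place the 10 genes among other macrophage genes. In the bled against the contralateral knee, 34.7% of all probe sets were called, 19.5% higher and 15.2% lower. Of 12 genes on the pan-macrophage list 11 were higher and 1, Adgre1, was lower. Their median difference was 1.13 against 0.00364 over all probe sets. The high-affinity Fc receptor gene Fcgr1a rose by 1.98, the leukocyte phosphatase gene Ptprc by 1.76 and Cd53 by 1.61. Of 13 measured monocyte and recruited macrophage genes 8 were higher and 2 lower, with a median of 0.99. Arginase gene Arg1 rose by 5.94, the proteoglycan gene Vcan by 2.77 and the integrin gene Itgam by 2.33. Some of these genes are also made by other leukocytes, Ptprc and Cd53 by lymphocytes too. Neutrophil markers were higher for 7 of 10 genes and lower for 1. Their list means were 7.25 to 9.42 in bled and 5.83 to 8.56 in contralateral knees. T cell markers were higher for 6 of 7 genes and lower for 1. The part of other leukocytes in these counts was not tested.

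Of 15 other resident macrophage genes, 10 were lower, 2 were higher and 3 did not pass, with a median of -0.53. Over all probe sets 15.2% were lower and 19.5% higher. The secreted scavenger protein gene Cd5l fell by 1.68 and the selenium carrier gene Selenop fell by 1.63, while the lectin gene Clec10a rose by 1.44. Of 13 measured lipid-associated macrophage genes 8 were higher and 4 lower, with a median of 0.68. Osteopontin gene Spp1 rose by 3.95, the integrin gene Itgax by 1.88, and the lipid-droplet gene Plin2 by 1.71. Adipocyte genes were lower for all 9 measured, with list means of 8.16 to 9.84 in bled and 11.03 to 11.72 in contralateral knees. The part of adipocyte content in the knee differences of the 10 genes was not tested. Of 7 T cell genes 6 were higher and 1 lower, of 7 dendritic cell genes 4 were higher and 2 lower, and of 6 blood endothelial genes 5 were lower. Of 8 synovial fibroblast genes 6 were lower and 0 higher, with Clic5 at -2.68 and Cdh11 at -1.24. Their list means, 10.64 to 11.31 in bled and 11.32 to 11.83 in contralateral knees, did not overlap.

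**Figure D4:**
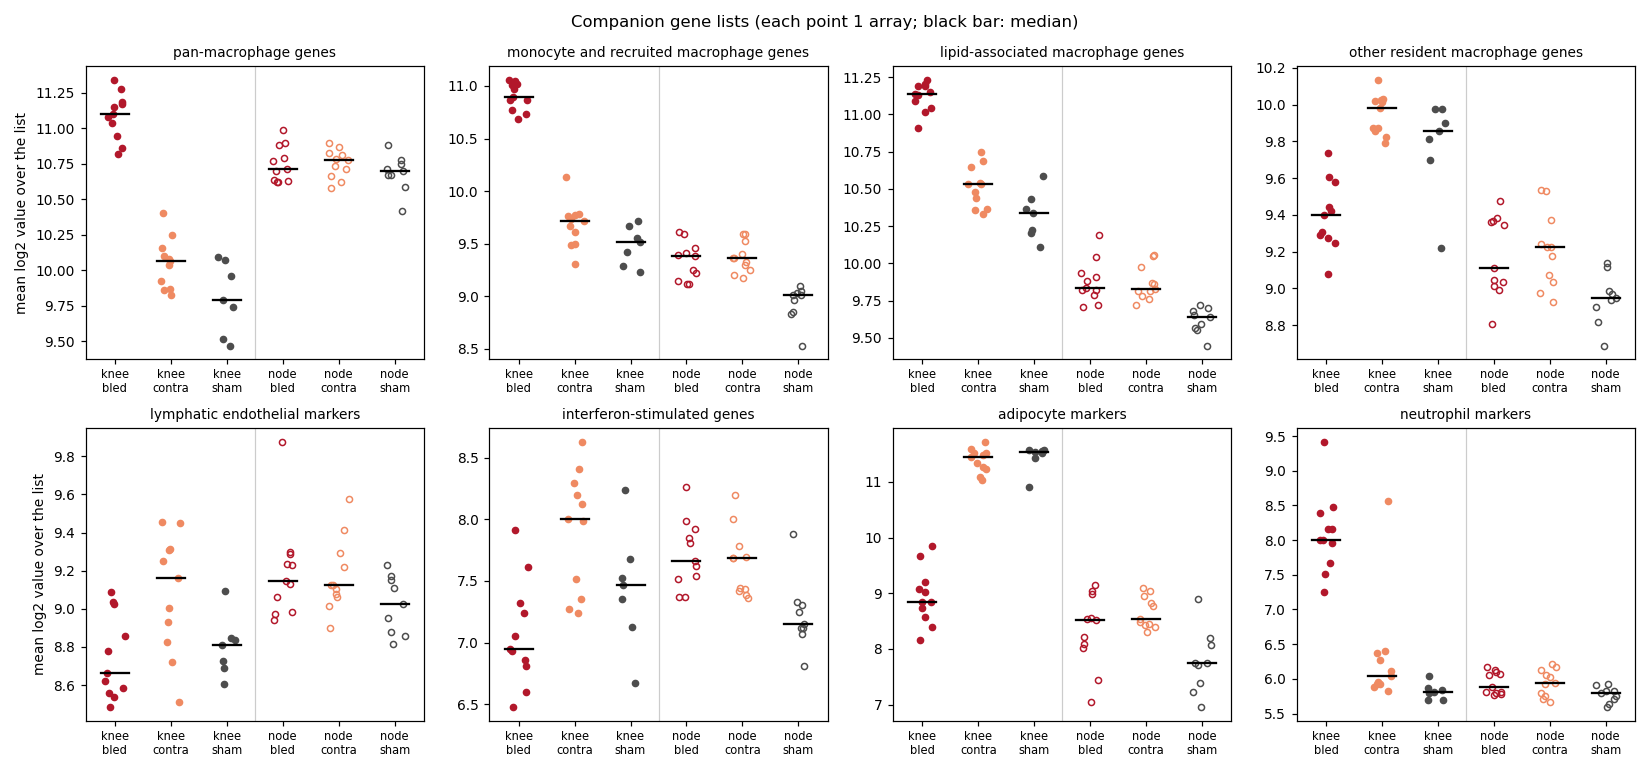
Mean log2 value over each of 8 companion lists (vertical axis) on each array, by tissue and group, with black bars at the medians. Pan-macrophage, monocyte, lipid-associated and neutrophil lists are highest in bled knees, and the resident and adipocyte lists are lower in bled than in contralateral knees.

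Among 21 measured ligands, adaptors and regulators of the 10 genes, 8 were higher and 9 lower in the bled knee, set against the contralateral one. Over all probe sets 19.5% were higher and 15.2% lower. The ligand of Cx3cr1, Cx3cl1, was lower by -2.29 ± 0.16 (adjusted p = 5.24e-13), with 6.45 to 7.75 in bled and 8.78 to 9.57 in contralateral knees, so that ligand and receptor moved in opposite directions. Adam17, a protease that sheds Cx3cl1, was higher by 0.50. Of the Mertk ligands, Gas6 was lower by -1.80 ± 0.13 (adjusted p = 1.01e-12) and Pros1 by -0.47, and the sister receptors Axl and Tyro3 were lower by -0.92 and -0.23. The adaptors Tyrobp, used by Trem2, and Hcst were higher by 1.80 and 1.60, and the kinase Syk by 1.64. Spn, a sialylated ligand of Siglec1, was higher by 0.78. Of growth factors that maintain macrophages, Il34 was lower by -1.46 and Csf1 by -0.27, while their receptor Csf1r was higher by 0.67. Among transcription factors Irf8 and Spi1 (PU.1) were higher by 1.76 and 1.46, and Nr1h3 and Mitf were lower by -0.85 and -0.51. Against sham knees 10 of the 21 were higher and 7 lower, where 19.9% and 18.8% of all probe sets were. Bled, contralateral and sham means were 9.85, 9.35 and 9.70 for Adam17, 10.21, 10.48 and 10.27 for Csf1 and 9.60, 10.11 and 9.70 for Mitf. In each of these genes the sham mean lay nearer the bled than the contralateral mean.

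In contralateral against sham nodes 5.03% of all probe sets were called and 2.22% were higher. The listed macrophage genes that passed were all higher. Of other resident macrophage genes 4 of 15 were higher and 0 lower, Cd163 by 1.27, Clec10a by 0.71, Folr2 by 0.65 and Igf1 by 0.40. Of 13 monocyte genes 4 were higher and 0 lower, Vcan by 2.63-fold, and Ccr2 by 1.20, Ace by 0.70 and Cd14 by 0.64 on the log2 scale. Of 13 lipid-associated genes 4 were higher and of 12 pan-macrophage genes 1 was, with none lower in either list. With the adipocyte covariate Vsig4, Gpnmb and Cx3cr1 lost their calls in this comparison, and no such fit is given for these lists.

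Within groups, the deviation of each array from its group mean was compared between genes. These are descriptions over 29 knee or 31 node arrays, which share rats and array quality. In the knee 37 of 45 pairs of the 10 genes had an r above 0, with a median of 0.25, and 3 pairs exceeded 0.5. Vsig4 and Lyve1 were the closest pair (r = 0.75, and 0.77 over the bled knees alone). In the node 40 of 45 pairs were above 0 and 11 exceeded 0.5, with Mrc1 and Mertk closest (r = 0.81). The lowest r was that of Trem2 with Siglec1 in nodes, -0.54, whereas the same pair had r = 0.54 in knees, or 0.39 without the 2 farthest arrays.

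**Figure D5:**
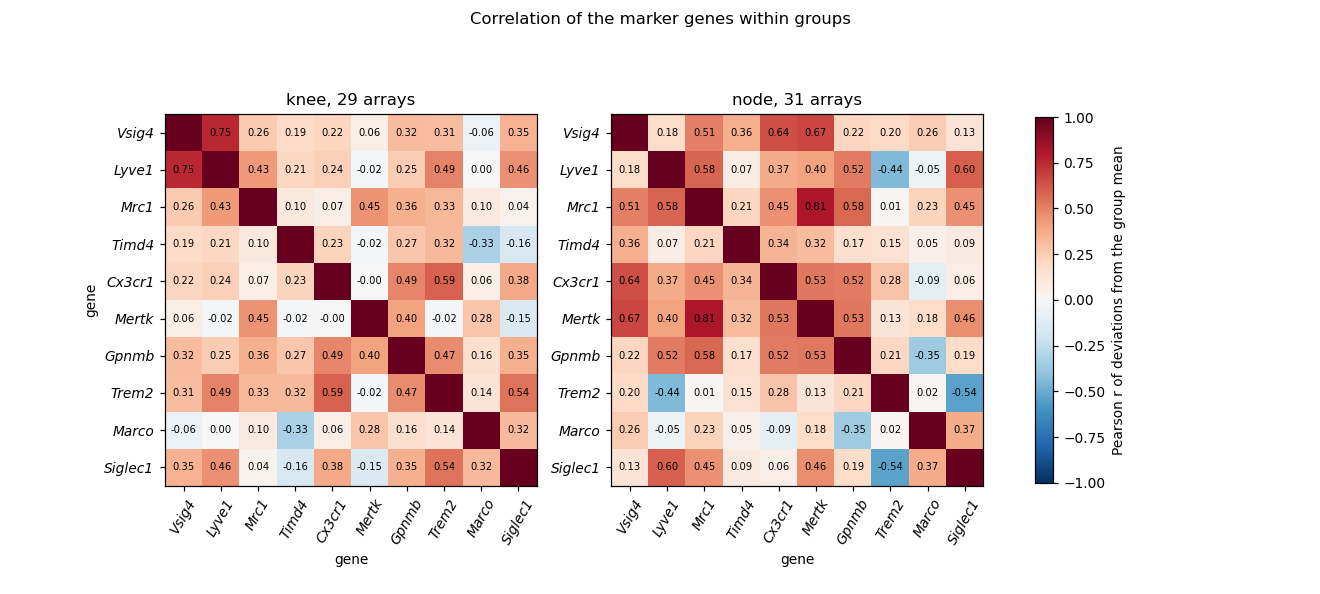
Pearson r between the 10 genes over deviations from the group mean, for 29 knee arrays (left) and 31 node arrays (right), with red above 0 and blue below. Vsig4 with Lyve1 in the knee (0.75) and Mrc1 with Mertk in the node (0.81) are the closest pairs.

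Over all 18166 genes, the genes most like each of the 10 within groups were named by the highest Pearson r. In the knee Vsig4 was closest to C6 (r = 0.77) and C1qb (0.77), Lyve1 to Cd4 (0.83), Mrc1 to Cd163 (0.88), Clec10a (0.86) and Ms4a4a (0.83), and Trem2 to Gpr34 (0.89). Cx3cr1 was closest there to Cotl1, Slamf8 and Klrk1 (each 0.82), Gpnmb to Npl (0.79), Mertk to Phf3 (0.84) and Siglec1 to Lgals3bp (0.86). Timd4 and Marco had looser neighbours, Nova1 (0.69) and Gpd1l2 (0.73). In the node Lyve1 was closest to Mmrn1 (0.88), Mrc1 to Ms4a4a (0.92), Siglec1 to Sema6d (0.90), Gpnmb to Ifitm1 (0.85), Marco to Fgf12 (0.83) and Vsig4 to Alox5 (0.74). For Mrc1, Ms4a4a was among the 3 closest genes in both tissues, and none of the other 9 genes had a gene among its 3 closest in both tissues. Without the 2 arrays farthest from the median, r stayed at 0.86 for Mrc1 and Cd163 in the knee and at 0.90 for Siglec1 and Sema6d in the node.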

How the data were processed

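The authors deposited log2 values for 36685 probe sets on 60 arrays, between 1.62 and 14.03. Per the submitters' processing notes these came from RMA (Affymetrix Expression Console 1.4.46). Joint normalization of the tissues, RMA options and scan batches are not given in the sources used here. Array annotation gave 1 symbol to 18511 probe sets, several to 575, and did not list 17599. Groups, sides and rats came from the sample labels. The 10 genes and the 18 companion lists were chosen with earlier results of these data known.

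All probe sets were fitted without filter in R 4.3.3 with limma 3.58.1, 3 groups per tissue, and all 60 arrays in 6 groups for comparisons between tissues. A gene was called at a Benjamini-Hochberg adjusted p under 0.05 over all probe sets. Alternatives included fitting only the compared groups, the rat as a block, array weights, quantile normalization, cell-type covariates and leaving out arrays. The covariate was the skeletal muscle mean in knees and the adipocyte mean in nodes. No adipocyte covariate was fitted in knees. Other genes were named by the 3 highest within-group r per gene, the partner list, and up to 3 called genes per list with the largest difference between bled and contralateral knee. For contralateral against sham nodes, every called gene of the resident and monocyte lists was named, chosen after their values were seen. In simulated data with 200 changed probe sets, 93 of 100 changed by 1 log2 unit and 53 of 100 changed by 0.5 were recovered between bled and contralateral knees. Between the nodes of both sides 99 and 74 of 100 were recovered. In the real knees 34.7% of all probe sets were called, so the simulated knee cut-off was stricter than the real one. Between the real nodes of both sides 0% were called, so the simulated node cut-off was looser than the real one. The simulated node counts therefore overstate recovery for a gene changed alone. They pool probe sets and do not give recovery for single genes such as Vsig4 and Timd4, with SE of 0.27 and 0.25 between the nodes. Same-numbered samples are 1 rat, with pair correlations of -0.10 to 0.21 in knees and 0.12 to 0.32 in nodes. Precision rests on 7 to 11 arrays per group. Figures used Python 3.11.15 and matplotlib 3.10.9.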

Additional observations from a re-analysis of the deposited data

Results flagged for a closer look

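The knee and node differences between the bled and contralateral sides were unequal for 8 of the 10 genes by a contrast of contrasts in limma. Over all probe sets 27.8% were called in this contrast. The knee minus node value was -1.97 for Vsig4 (adjusted p = 2.97e-06), -0.78 for Lyve1 (0.00147), -1.27 for Timd4 (0.00376) and -1.13 for Siglec1 (0.000107). It was 2.54 for Cx3cr1 (adjusted p = 3.87e-14), 0.86 for Mrc1 (0.000118), 0.79 for Gpnmb (0.00134) and 0.46 for Mertk (0.00903).

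Among 9 sham nodes, that of rat C9 was marked as apart from the others for 2 genes, Cx3cr1 and Mertk. Its Cx3cr1 was 7.59 against 8.5 in the next node, and its Mertk 7.45 against 7.8. Of the 20 groups of 4 to 10 arrays tested, these 2 were marked, where chance marks about 1 in 20. The node of C9 also had the lowest sham node value of Vsig4, Lyve1, Timd4, Gpnmb and Siglec1. Its mean over the 10 genes, 8.82, was the lowest of the sham nodes.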

How the results depend on the processing

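No difference that was called changed direction under the alternatives that were run. Some uncalled differences did, and not only when 1 array was left out. Mrc1 in contralateral against sham nodes, 0.01 in the main fit, ran from -0.15 to 0.06 over the other alternatives. With the replicate block, the rat as a random effect, no call of the 90 results changed; the difference between bled and contralateral knee was then 2.44 for Cx3cr1 (adjusted p = 1.94e-13) and -2.13 for Vsig4 (3.26e-11). Fitting only the compared groups changed 3 of the 90 results, the Vsig4 and Mertk differences between contralateral and sham knees (adjusted p = 0.0143 and 0.0819) and the Cx3cr1 difference between contralateral and sham nodes (0.0618). In knees, the count of genes called between contralateral and sham, 2, became 1 after quantile normalization, 0 with array weights and 1 without the sham knee of C5. Between contralateral and sham nodes, 3 became 1 with array weights, 1 without C2 and C9 and 0 with the adipocyte covariate. Between bled and sham nodes, 2 became 1 without C2 and C9 and 1 with the adipocyte covariate. Leaving out 1 array gave 8 in bled against contralateral knees, 7 to 8 in bled against sham knees, 1 to 3 in contralateral against sham knees and again in nodes, 2 in bled against sham nodes, 0 between node sides, 8 and 0 to 1 in the knee minus node contrasts, and 6 between sham tissues. Centring each array, moderation with a trend, 1 probe set per gene, the mean over a gene's probe sets and leaving out dim probe sets changed none of 90 results, and the skeletal muscle covariate none of 30. Each of the 10 genes had 1 probe set, so the 2 fits by gene kept its values. Those fits could change only its spread estimate and adjusted p. The cause of the changed calls was not tested.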

Other observations

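The highest Timd4 values of several groups came from the same rats. Rat K8 had the highest value of its group in the contralateral knee (9.11), in the node of the bled side (10.38) and in the contralateral node (9.98), and was at 6.25 in the bled knee. Rats C7 and C2 had the highest sham values in knee (8.7 and 8.54) and in node (10.82 and 11.29). Other sham rats reached at most 7.17 in knee and 9.73 in node. Some other rats ranked differently in the tissues. K10 ranked 2 in both knee groups, but 7 in nodes of the bled side and 8 in contralateral nodes, C5 ranked 7 in sham knees and 4 in sham nodes, and C3 ranked 3 and 7.

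Mlana, the 1 melanocyte marker that passed in the knee, had medians of 3.69 in bled, 5.31 in contralateral and 5.16 in sham knees.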
